A study of Mus musculus with 6 samples.

Results

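The genes described here encode the respiratory chain and ATP synthase of mitochondria, complexes I to V of oxidative phosphorylation. They were chosen by gene symbol alone: the protein genes of mitochondrial DNA (mt-Nd, mt-Co, mt-Atp and mt-Cytb) and the nuclear genes whose symbols begin with Ndufa, Ndufb, Ndufc, Ndufs or Ndufv, Uqcr, Cox4 to Cox8 or Atp5, or are Sdha, Sdhb, Sdhc or Sdhd. This rule took 109 of the 34745 genes in the table, 13 of mitochondrial DNA and 96 of the nucleus. The nuclear genes are 36 of complex I, 4 of complex II, 8 of complex III, 20 of complex IV, 15 of complex V, 9 that encode no subunit (the complex I assembly factors Ndufaf1 to Ndufaf7, and Atp5s and Atp5sl) and 4 pseudogenes. Ndufa4 and Ndufa4l2 were counted with complex IV, where the Ndufa4 protein sits. The rule does not take the cytochrome c1 gene Cyc1, which was read with a list of complex III genes below.

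The respiratory chain moves electrons from NADH and succinate to oxygen and pumps protons across the inner mitochondrial membrane, and ATP synthase uses that gradient to make ATP. Complex I oxidises NADH, complex II oxidises succinate, complex III passes electrons from ubiquinol to cytochrome c and complex IV reduces oxygen. Mitochondrial DNA encodes subunits of complexes I, III, IV and V and none of complex II, so the other complexes need matched products of both genomes. Hepatocytes are rich in mitochondria, and liver regrowth after surgery needs ATP for biosynthesis while the remaining tissue keeps up its metabolic work.

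RNA was sequenced from livers of 12-week-old C57BL/6 mice, 48 h after an operation that takes out part of the liver (partial hepatectomy, PHx). Of the 6 libraries, 3 carry the label Sox9HKO (HKO below) and 3 the label Sox9f/f (WT below). The f/f notation is the usual one for a pair of floxed alleles of Sox9, the gene of a transcription factor of bile duct cells. The driver that removes Sox9, and the exons it removes, are not given in the sources used here. All 6 samples had the same surgery, and no unoperated group was analysed here. In the labels the tissue is liver and the cell type hepatocyte, and they do not say whether each library is a separate mouse, so each p-value below measures the spread between libraries, which may be technical.

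The libraries held 16659778 to 21168233 counts, and 12556 genes had enough counts to be tested. Sox9 itself was at 5.14 ± 1.06 CPM (counts scaled to one library total) in HKO and 10.6 ± 3.41 in WT (SD, n = 3; log2 fold change -1.05, SE 0.27, adjusted p = 0.0284 by edgeR), a call kept in 2 of 6 fits that each left out 1 library. Hepatocyte markers were abundant in every library, with a summed level of 85481 to 116753 CPM over 10 genes, 4 of them higher and 2 lower in HKO, where 12.1% of all tested genes were called higher and 11.2% lower. The Kupffer cell and macrophage list had 10 of 10 genes higher in HKO, with sums of 317, 211 and 303 CPM in HKO 1, 2 and 3 against 139 to 148 in WT. Of the 10 lymphocyte and plasma cell markers 3 were tested, and all 3 were higher. Of the 6 red cell markers 4 were tested, and 3 were higher. The lymphocyte list summed to 1.11 to 2.30 CPM in WT and 20.1 to 27.3 CPM in HKO. Genes that low in WT can pass the filter on low counts through HKO, so these 2 counts do not describe the whole lists. Of the 10 bile duct markers 4 were tested, and 3 were lower, Sox9 among them. Markers of striated muscle, brown fat and spermatogenic cells, whose mitochondria use tissue-specific subunits, summed to at most 0.582 CPM in any library, and none passed the filter on low counts.

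Nuclear respiratory genes are known targets of the transcription factors NRF1, ERR-alpha, GABP (of the ETS family) and YY1, so the promoters of the subunit genes were searched for the exact letters of 4 motifs on both strands, each motif on its own, so that a base could count for more than one. Promoter letters from RefSeq (GRCm38.p6; 250 bases before each start) were found for 68 of the nuclear subunit genes. The NRF1 motif GCGCATGCG stood in 6 of these 68 (8.82%) and in 2.19% of 17492 protein-coding genes. The ETS motif CCGGAAG stood in 12 (17.6%, against 10.2%), the ERR motif TCAAGGTCA in 1 (1.47%, against 0.360%), and the YY1 motif AAGATGGCG in 1 (1.47%, against 0.840%). Of the 13 genes called higher in HKO that have an entry, 1 held the NRF1 motif, 1 the ERR motif and 3 the ETS motif. Of the 55 other subunit genes, 5 held the NRF1 motif, 0 the ERR motif and 9 the ETS motif. A link between motifs and calls was not tested. A match is only a run of letters, and no binding was measured.

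The stretches below are shown because they carry the NRF1 and the ERR match among genes that were higher in HKO, and the capitals mark the match. The promoter of Cox6a1, a subunit of complex IV, is given from chr5:115348982-115349129 (minus strand). Annotated exon bases were left out, so this stretch of 148 bases ends 23 bases before the start. Its NRF1 matches, an overlapping pair with one on each strand, begin 162 bases before the start. The promoter of Atp5g3, one of 3 genes for the ring subunit c of ATP synthase, is given from chr2:73911327-73911576 (minus strand), and its ERR match, on the opposite strand, begins 52 bases before the start.
Cox6a1: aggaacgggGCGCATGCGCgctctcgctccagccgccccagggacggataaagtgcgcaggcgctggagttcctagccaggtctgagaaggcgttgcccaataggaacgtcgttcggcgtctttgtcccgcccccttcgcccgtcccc
Atp5g3: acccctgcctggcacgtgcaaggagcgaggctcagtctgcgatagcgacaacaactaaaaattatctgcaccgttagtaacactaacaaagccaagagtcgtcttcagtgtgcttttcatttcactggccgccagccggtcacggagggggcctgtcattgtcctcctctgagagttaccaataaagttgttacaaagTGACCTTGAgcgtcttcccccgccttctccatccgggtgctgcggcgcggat

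By the deposited FPKM, most mitochondrial genes stood far above the nuclear ones. FPKM, the deposited level per length and library size, had WT medians of 14.6 over the nuclear genes of complex I, 50.5 for complex II, 38.2 for complex III, 42.6 for complex IV (the 14 tested genes) and 22.3 for complex V. The corresponding mitochondrial medians were 10114 for complex I, 14303 for complex III, 16531 for complex IV and 23794 for complex V. The gene lengths behind the FPKM are not given in the sources used here. For some nuclear genes, Ndufb10 among them, counts and FPKM imply a length greater than the whole locus. Their FPKM thus understates the level per transcript length, and the order of genes with similar FPKM is uncertain. In WT all 13 mitochondrial genes had a higher mean FPKM than the nuclear gene with the highest FPKM, Cox6b1 at 228. The lowest mitochondrial gene was mt-Nd6, the only one on the opposite strand, at 277 FPKM, and the next was mt-Nd3 at 3007. In HKO, Cox6b1 (325 FPKM) stood above mt-Nd6 (244 FPKM), and the other 12 mitochondrial genes stayed above every nuclear one.

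In HKO, 16 nuclear members were higher and 3 lower than in WT (edgeR, adjusted p below 0.05 over all genes), of 87 that could be tested. The background is 12.1% of all tested genes called higher and 11.2% called lower, against 18.4% and 3.45% of the nuclear members. The share called higher was above the background with all 6 libraries but fell below it in 4 of the 6 fits that left out 1 library, and was also near or below it with libraries scaled by column totals (10.3% against 10.6%) and with a replicate block (8.05% against 9.92%). No mitochondrial gene was called. Of the 87 nuclear genes, 76 had a positive log2 fold change, with a median of 0.29 (quartiles 0.12 and 0.37), where all tested genes had a median of 0.02 (quartiles -0.29 and 0.36). These are small changes, and the 16 called higher lay between 0.36 and 0.72 on the log2 scale. HKO lay wholly above WT in 42 of the 87 (48.3%, against 22.6% of all tested genes) and wholly below in 5, where the background is 21.6%. In either direction the groups did not overlap in 44.2% of all tested genes.

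**Figure D1:**
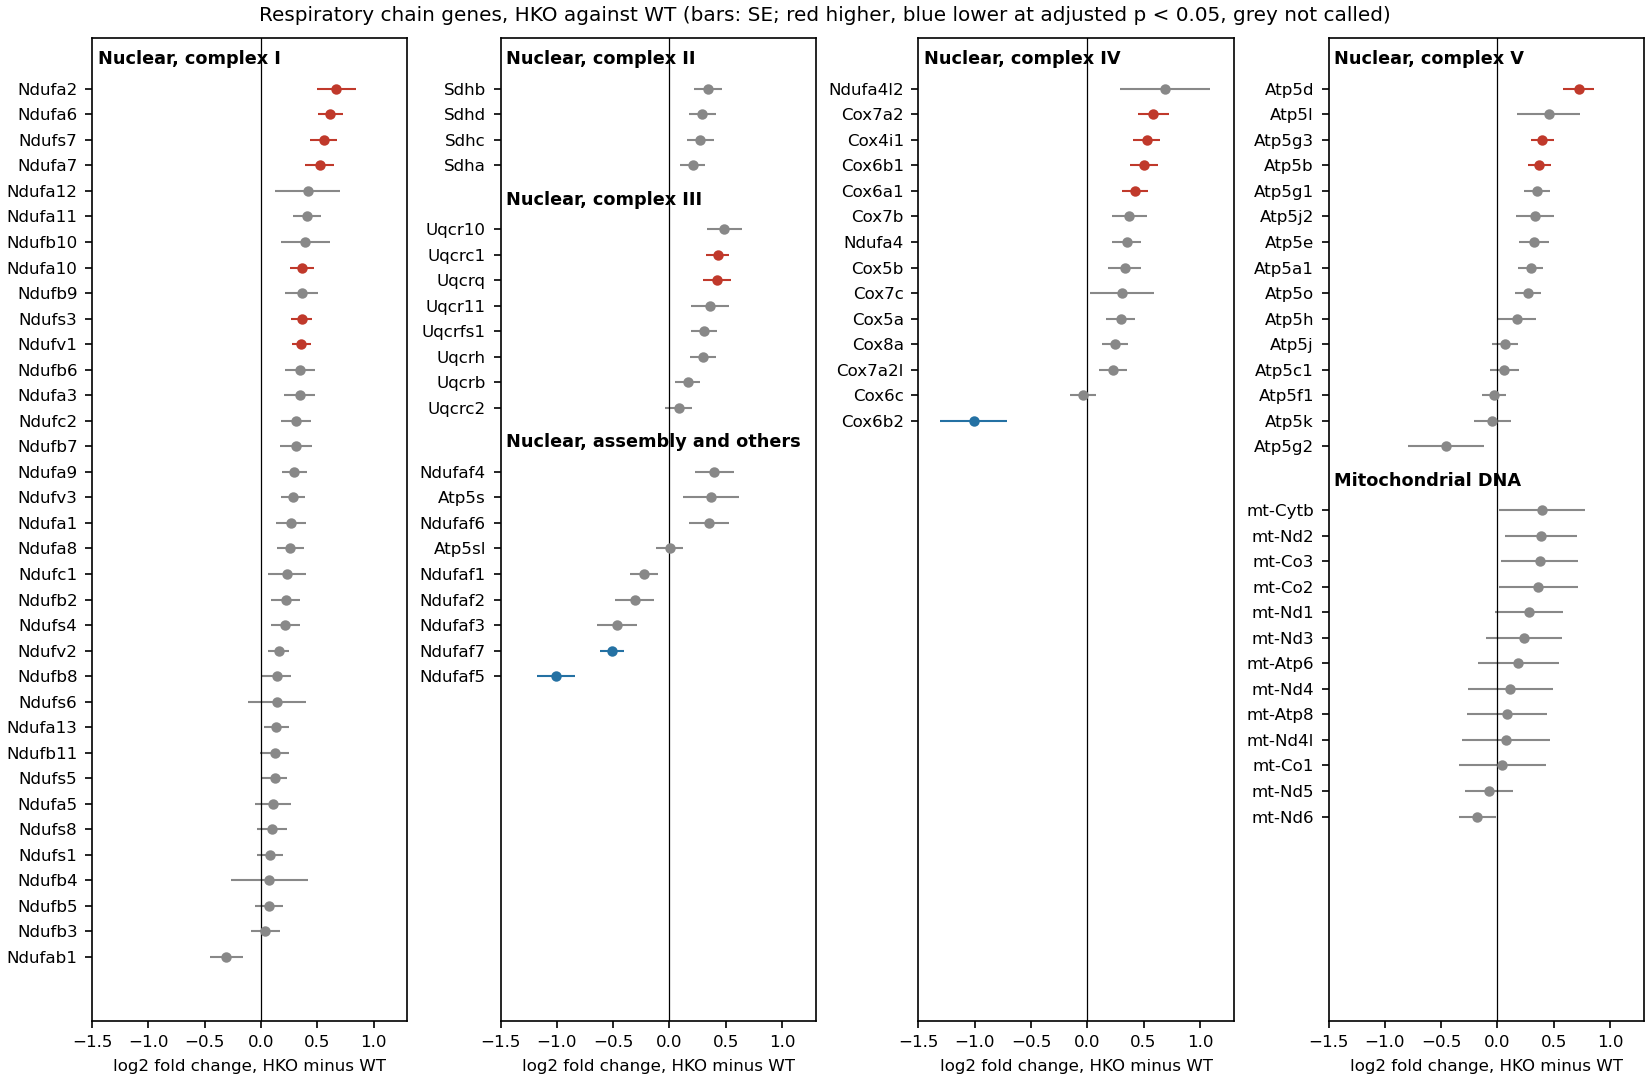
Log2 fold changes of tested respiratory chain genes, HKO minus WT, by complex and genome, with points for the edgeR estimate and bars for its SE; red genes were called higher and blue genes lower. Most nuclear subunits sit to the right of 0, with a median of 0.30 over 77, while the Ndufaf assembly factors spread to the left and the mitochondrial genes have wide bars.

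All 16 higher calls were among the 77 tested nuclear subunit genes (20.8%, against 12.1% of all tested genes), with 1 subunit gene lower (against 11.2%). Only 9 tested genes that encode no subunit and 1 tested pseudogene remained, too few to set subunits apart. DESeq2 and limma-voom each called 17 subunits higher. As given above, the share of nuclear members called higher fell below the background in most fits with 1 library left out. The counts by complex and part below were not tested against the background. By complex, 7 of 36 were higher in complex I, 0 of 4 in complex II, 2 of 8 in complex III, 4 of 14 in complex IV and 3 of 15 in complex V. The median log2 fold changes were 0.27, 0.28, 0.33, 0.34 and 0.29 in that order, so the complexes differed little from each other, and a difference between complexes was not tested. Within complex I, 3 of the 7 nuclear core subunits, which carry the electron path, were called higher and 4 of the 29 accessory subunits, with medians of 0.29 and 0.26. Within complex V, 2 of the 5 genes of the catalytic head F1 were higher and 1 of the other 10, with medians of 0.33 and 0.22.

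Summed over genes, the nuclear members reached 8659, 7147 and 7399 CPM in HKO 1, 2 and 3 against 6059, 6409 and 6467 CPM in WT 1, 2 and 3. The HKO sums thus all lay above the WT sums, and HKO 1 stood apart as the highest. The group means were 7735 ± 810 and 6312 ± 220 CPM (SD, n = 3), which is a log2 ratio of 0.29. The ratio was 0.20 without HKO 1 and 0.35 without HKO 2, and it lay between 0.29 and 0.32 with other scalings of the libraries or with FPKM. By complex, the log2 ratio of the sums was 0.27 for complex I, 0.25 for complex II, 0.29 for complex III, 0.37 for complex IV and 0.30 for complex V. In complex II the groups only just did not overlap: HKO 2 stood at 768 CPM and WT 2 at 766.

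HKO 1 held the highest level of the 6 libraries in 71 of the 77 nuclear subunit genes, and WT 1 the lowest in 39. The median nuclear subunit lay above the WT mean by 0.49, 0.18 and 0.17 on the log2 scale in HKO 1, HKO 2 and HKO 3 respectively, and at -0.07, 0.01 and 0.06 in WT 1, 2 and 3. Across all tested genes the same medians lay between 0.00 and 0.02 in size. The number of nuclear genes called higher was 5 without HKO 1 (5.75%, against 8.58% of all genes tested in that fit), 20 without HKO 2 (22.99% against 12.5%) and 10 without HKO 3 (11.5% against 7.59%). It was 4 without WT 1 (4.60% against 8.49%), 3 without WT 2 (3.45% against 7.44%) and 4 without WT 3 (4.60% against 5.63%). The share thus stood above the background without HKO 2 or HKO 3 and below it without HKO 1 or any 1 of the WT libraries. The median log2 fold change of the nuclear genes stayed positive in these 6 fits, from 0.17 without HKO 1 to 0.35 without HKO 2, with 64 to 78 of the 87 above 0. Of the 16, 14 lost their call in at least 1 of these 6 fits. Ndufa6, Atp5d and Ndufaf5 kept theirs in all 6. Without HKO 2, 15 of the 16 kept their call and Cox6a1 did not, while Ndufa9, Ndufb10, Ndufb9, Sdhb and Atp5a1 were called as well.

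**Figure D2:**
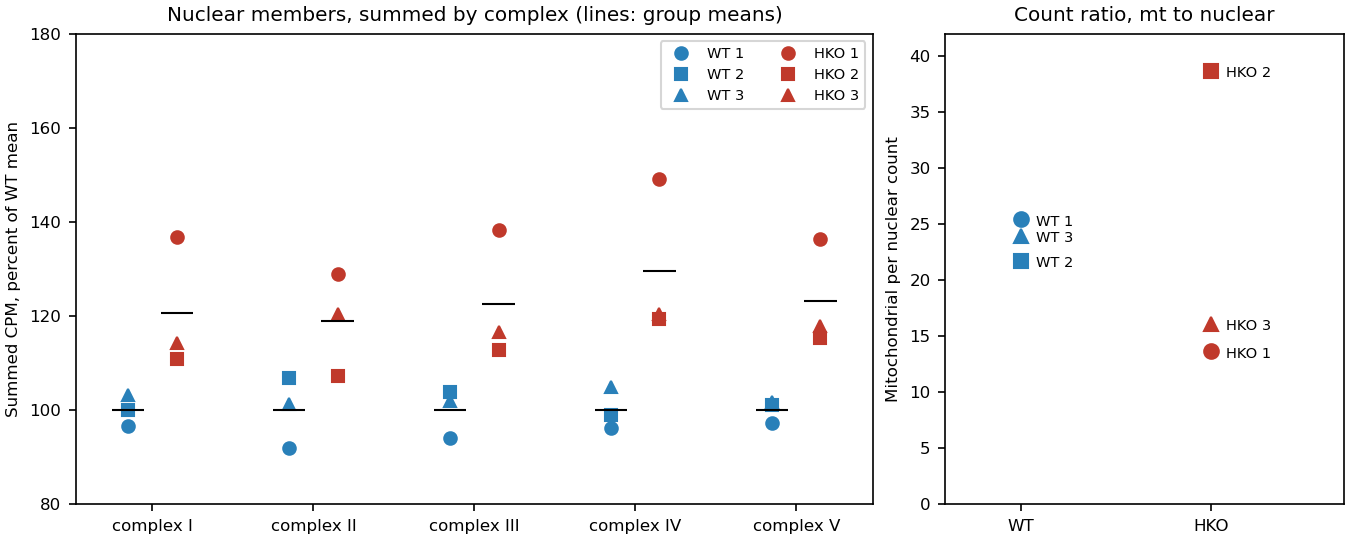
Left, summed CPM of the nuclear members of each complex in each library as a percentage of the WT mean (axis from 80), with black lines for group means; right, mitochondrial counts per nuclear member count in each library. The circle of HKO 1 is the highest in every complex on the left, where HKO 2 and HKO 3 lie closer to WT, and on the right HKO 2 (38.7) and HKO 1 (13.6) lie on opposite sides of WT (21.7 to 25.4).

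In complex I, the called gene with the smallest adjusted p was Ndufa6 (ENSMUSG00000022450; chromosome 15, 82350139 to 82354291, minus strand), an accessory subunit of the matrix arm. It was at 59.4, 47.2 and 51.1 CPM in HKO 1, 2 and 3 against 32.8, 35.9 and 34.0 CPM in WT 1, 2 and 3. All HKO libraries were above all WT libraries, with a clear gap between HKO 2 and WT 2. The log2 fold change was 0.62 (SE 0.11, adjusted p = 0.00777 by edgeR), and the adjusted p ranged from 0.00441 to 0.0427 with 1 library left out. Ndufs7 (ENSMUSG00000020153; chromosome 10, 80249121 to 80256794, plus strand), a core subunit that holds the last iron-sulfur cluster before ubiquinone, was at 39.0, 30.6 and 33.5 CPM in HKO and 25, 22.0 and 23.1 CPM in WT. The groups did not overlap, and the log2 fold change was 0.56 (SE 0.12, adjusted p = 0.0152), with the call lost without WT 2 or without WT 3. Ndufv1 (ENSMUSG00000037916; chromosome 19, 4007497 to 4012806, minus strand), the core subunit that binds NADH and flavin, was at 74.3, 67.5 and 73.6 CPM in HKO and 55.8, 57.9 and 54.2 CPM in WT. Its libraries were close together within each group, and the log2 difference was 0.36 (SE 0.09, adjusted p = 0.0235), but only the fit without HKO 2 kept the call among those with 1 library left out.

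The other 4 called genes of complex I, named after their values were seen, were Ndufa7 (0.52), Ndufa2 (0.67), Ndufs3 (0.36) and Ndufa10 (0.37), as log2 fold changes. Ndufs3 is a core subunit and the others are accessory. Of the 29 that were not called, 28 had a positive log2 fold change, up to 0.41, with 1 exception: Ndufab1, the mitochondrial acyl carrier protein, which also serves fatty acid synthesis in mitochondria, was at 13.3 ± 1.91 CPM in HKO and 16.4 ± 1.55 in WT (SD, n = 3; log2 fold change -0.31, adjusted p = 0.158). The exons of Ndufa2 overlap those of Tmco6 and the exons of Ndufs3 those of Kbtbd4, each on the opposite strand, so reads of the overlap cannot be assigned to one gene.

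Complex II, also called succinate dehydrogenase and also an enzyme of the tricarboxylic acid cycle, had no called gene by edgeR, DESeq2 or limma-voom, and 2 of its 4 genes had an unadjusted p below 0.05. Sdha, the flavin subunit, was at 470, 405 and 479 CPM in HKO 1, 2 and 3 against 369, 418 and 384 CPM in WT 1, 2 and 3. The groups overlapped there, since HKO 2 lay below WT 2. Sdhb, the iron-sulfur subunit, was at 115, 89.5 and 94.7 CPM in HKO and at 71.5, 81.6 and 82.6 CPM in WT. The membrane anchor Sdhc was at 134, 107 and 117 CPM in HKO and 87.1, 106 and 103 CPM in WT, and the anchor Sdhd was at 206, 167 and 173 CPM in HKO and 131, 160 and 156 CPM in WT. For Sdhb, Sdhc and Sdhd all HKO libraries lay above all WT libraries, by a narrow margin for Sdhc. The 4 log2 fold changes were 0.21, 0.34, 0.27 and 0.29 for Sdha, Sdhb, Sdhc and Sdhd, with adjusted p of 0.201, 0.0755, 0.135 and 0.121.

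In complex III, Uqcrc1 (ENSMUSG00000025651; chromosome 9, 108936633 to 108949623, plus strand), a core subunit on the matrix side, was at 220, 188 and 201 CPM in HKO 1, 2 and 3 against 141, 162 and 149 CPM in WT 1, 2 and 3. The groups did not overlap, and the log2 fold change was 0.43 (SE 0.10, adjusted p = 0.0207), a call kept in 2 of the 6 fits with a library left out. Uqcrq, a small subunit in contact with cytochrome b, was at 164, 132 and 126 CPM in HKO and 96.8, 108 and 111 CPM in WT. It rose by 0.42 on the log2 scale (SE 0.12, adjusted p = 0.0431), a value close to the threshold, and kept its call in 1 of the 6 fits with a library left out. The other 6 genes of the complex had positive log2 fold changes from 0.08 to 0.49 and were not called.

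In complex IV, the subunits that are general to most tissues could be set beside their tissue-specific relatives. Cox4i1 (ENSMUSG00000031818; chromosome 8, 120668222 to 120674207, plus strand), the general form of subunit 4, was at 245, 186 and 202 CPM in HKO 1, 2 and 3 against 137, 149 and 154 CPM in WT 1, 2 and 3. The groups did not overlap, and it rose by 0.53 on the log2 scale (SE 0.12, adjusted p = 0.0194), though the call was lost without any 1 of the WT libraries. Its exons overlap those of Emc8 on the opposite strand. Cox4i2, the form of lung that responds to low oxygen, had counts in 1 HKO and 1 WT library and was at most 0.137 CPM. Cox7a2, the form of subunit 7a found in liver, was at 117, 89.1 and 96.6 CPM in HKO and at 57.8, 69.3 and 74.8 CPM in WT, with no overlap (log2 fold change 0.59, SE 0.14, adjusted p = 0.0215). Its heart and muscle form Cox7a1 had 0.228 to 0.752 CPM in HKO and 0 to 0.169 CPM in WT and was too low to be tested. Cox7a2l, a relative that joins complexes III and IV into supercomplexes, was at 61.0 ± 7.26 CPM in HKO and 52.1 ± 5.40 in WT (SD, n = 3), and the groups overlapped (log2 fold change 0.23, adjusted p = 0.219).

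Cox6a1, the liver form of subunit 6a whose promoter is printed above, was at 176, 158 and 143 CPM in HKO and at 132, 107 and 118 CPM in WT. HKO 3 lay not far above WT 1, and the gene rose by 0.42 on the log2 scale (SE 0.12, adjusted p = 0.0373). The muscle form Cox6a2 had a count in HKO 2 only, at 0.116 CPM. Cox6b1, a subunit on the cytochrome c side, was at 193, 145 and 153 CPM in HKO and 110, 117 and 118 CPM in WT, with no overlap and a log2 difference of 0.51 (SE 0.12, adjusted p = 0.0233). Its testis form Cox6b2 was the one subunit gene called lower: it was at 1.07, 0.872 and 0.866 CPM in HKO and at 2.22, 1.63 and 1.83 CPM in WT (log2 fold change -1.01, SE 0.30, adjusted p = 0.043). That call rests on few counts, was lost in all 6 fits with a library left out, and was not made by DESeq2. Spermatogenic markers were at or near 0 in every library, as given above.

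Of the remaining families of complex IV, Cox6c, which has a single form, was at 81.4 ± 11.2 CPM in HKO and 83.4 ± 3.24 in WT (SD, n = 3; log2 fold change -0.04, adjusted p = 0.85), the nuclear gene nearest to the WT level among those of the complex. Cox7b was at 88.3 ± 16.2 and 68.2 ± 9.20 CPM, and Cox8a at 123 ± 15.6 and 104 ± 4.47 CPM, in HKO and WT. Neither was called (log2 fold changes 0.37 and 0.25). Their tissue-restricted relatives Cox7b2, Cox8b and Cox8c had no count in any library. Ndufa4 was at 97.8 ± 11.1 CPM in HKO and 76.8 ± 10.4 in WT, without overlap (log2 fold change 0.35, adjusted p = 0.0913), and its relative Ndufa4l2 at 1.03 ± 0.359 and 0.631 ± 0.0823 CPM, with overlap (0.69, adjusted p = 0.245). Forms restricted to other tissues thus stayed at or below 2.22 CPM in every library of both groups.

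In complex V, Atp5d (ENSMUSG00000003072; chromosome 10, 80138632 to 80145818, plus strand), the delta subunit in the stalk of the catalytic head, had the largest log2 fold change of the members called higher. It was at 161, 122 and 119 CPM in HKO 1, 2 and 3 against 77.0, 87.3 and 79.8 CPM in WT 1, 2 and 3. The groups lay well apart, and the log2 fold change was 0.72 (SE 0.13, adjusted p = 0.00863), with adjusted p from 0.00685 to 0.0478 with 1 library left out. Its exons overlap those of Cbarp on the opposite strand. Atp5b, the catalytic beta subunit and the member with the most counts among the nuclear genes, was at 1168, 1036 and 1059 CPM in HKO and at 839, 834 and 846 CPM in WT. The WT libraries of Atp5b agreed closely, and it rose by 0.37 (SE 0.10, adjusted p = 0.0376). The alpha subunit Atp5a1 was at 735 ± 65.0 CPM in HKO and 599 ± 11.8 in WT (SD, n = 3), and was not called with all 6 libraries (log2 fold change 0.29, adjusted p = 0.0826).

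The c ring of ATP synthase is encoded by 3 genes that give the same mature protein. Atp5g3 was at 210, 179 and 171 CPM in HKO and at 143, 136 and 146 CPM in WT, without overlap, and rose by 0.40 on the log2 scale (SE 0.10, adjusted p = 0.0295). Atp5g1 was at 40.7, 37.3 and 37.3 CPM in HKO and 26.9, 33.8 and 29.8 CPM in WT, also without overlap, but was not called (log2 fold change 0.35, adjusted p = 0.0591). Atp5g2 stood at 1.13 ± 0.316 CPM in HKO and 1.54 ± 0.298 in WT (SD, n = 3), with overlap (log2 fold change -0.45, adjusted p = 0.362). By mean FPKM in WT, Atp5g3 (48.4) was above Atp5g1 (3.07) and Atp5g2 (0.732), the same order as by CPM. For Atp5g1, counts and FPKM imply a length greater than the whole locus, so its FPKM is understated and the size of these gaps is uncertain.

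The members that are no subunits are mostly assembly factors, which build complex I and are absent from the finished enzyme. Of 9 tested, 0 were higher by edgeR, DESeq2 or limma-voom and 2 were lower (22.2%), with a median log2 fold change of -0.22. The background was 12.1% of all tested genes higher and 11.2% lower, and 9 genes are too few to set apart from it. None of the 9 had an unadjusted p below 0.05 in the higher direction. Ndufaf5 (ENSMUSG00000027384; chromosome 2, 140170649 to 140203689, plus strand), which modifies the core subunit Ndufs7 during assembly of complex I, was at 3.38, 3.31 and 3.14 CPM in HKO 1, 2 and 3 against 7.0, 6.63 and 6.16 CPM in WT 1, 2 and 3. The libraries of each group were close together and the groups far apart, so it fell by 1.01 on the log2 scale (SE 0.17, adjusted p = 0.00534) and kept its call with any library left out. Ndufaf7, a methyltransferase that complex I assembly needs, was at 10.4, 11.7 and 10.9 CPM in HKO and at 15.6, 15.7 and 15.9 CPM in WT. It fell by 0.51 (SE 0.11, adjusted p = 0.0146), and the call was lost without WT 3. Of the 7 Ndufaf genes 2 had positive log2 fold changes, Ndufaf4 (0.40) and Ndufaf6 (0.35), neither of them called. A difference between assembly factors and subunits was not tested.

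The mitochondrial genes took 12.1%, 25.9% and 12.3% of all counts in HKO 1, 2 and 3 against 16.3%, 13.4% and 15.3% in WT 1, 2 and 3. HKO 2 was the highest of the 6 libraries and HKO 1 and HKO 3 were the lowest, so the HKO libraries lay on both sides of WT. The group means were 16.8 ± 7.86% and 14.97 ± 1.47% (SD, n = 3). The difference of 1.80 percentage points was smaller than the spread within HKO, and it became -2.74 without HKO 2. Of the 13 genes, 0 were called by edgeR, DESeq2 or limma-voom, where 23.2% of all tested genes were called by edgeR, and 0 had an unadjusted p below 0.05.

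Mitochondrial counts per nuclear member count, a ratio that does not depend on how libraries are scaled, were 13.6, 38.7 and 16.1 in HKO 1, 2 and 3 against 25.4, 21.7 and 24.0 in WT 1, 2 and 3. The mean log2 ratio was 0.21 lower in HKO than in WT (4.35 ± 0.81 against 4.56 ± 0.12, SD, n = 3), a difference inside the spread of HKO. Without HKO 2 the difference was -0.68, and without HKO 1 it was 0.08. Within single complexes the differences were -0.18 for complex I, -0.04 for complex III, -0.34 for complex IV and -0.26 for complex V, and without HKO 2 they were -0.59, -0.56, -0.82 and -0.73. In the libraries HKO 1 and HKO 3 the mitochondrial genes were thus low and the nuclear genes high relative to WT, and in HKO 2 both were above WT.

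The 7 mitochondrial genes of complex I encode the membrane arm that pumps protons. From HKO 1 to HKO 3 and then WT 1 to WT 3, mt-Nd1 was at 8891, 17645, 8554, 10451, 8396 and 10084 CPM. In the same order, mt-Nd2 was at 10200, 22197, 10301, 11176, 10141 and 11379 CPM. The level of mt-Nd3 was 953, 1966, 780, 972, 887 and 1281 CPM. In each of these genes HKO 2 stood above all other libraries, and for mt-Nd3 HKO 3 was also below every WT library. The pair mt-Nd4l and mt-Nd4, whose reading frames overlap on 1 transcript, was at 1829, 6056, 2716, 3303, 3279 and 3479 CPM (mt-Nd4l) and at 10162, 26568, 10673, 15537, 13465 and 14734 CPM (mt-Nd4). Here HKO 1 and HKO 3 were below all 3 WT libraries. The level of mt-Nd5 was 7254, 11701, 9980, 10726, 9557 and 10158 CPM, with HKO 2 only a little above WT. The gene on the opposite strand, mt-Nd6, was at 135, 142, 106, 120, 138 and 174 CPM, and its highest library was WT 3.

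The gene of cytochrome b, mt-Cytb, the heme-bearing core of complex III, was at 14217, 36239 and 13976 CPM in HKO 1, 2 and 3 against 17244, 15138 and 16578 CPM in WT 1, 2 and 3. The catalytic subunit of complex IV, mt-Co1, which had the most counts of all members, was at 28094, 70197 and 27698 CPM in HKO and at 41548, 38307 and 42312 CPM in WT. Both genes had HKO 2 at the top and HKO 1 and HKO 3 below every WT library. The copper subunit mt-Co2 was at 10642, 23682 and 9228 CPM in HKO and 11690, 10447 and 11713 CPM in WT, and mt-Co3 was at 10313, 22580 and 9316 CPM in HKO and 9833, 10699 and 12013 CPM in WT. For these, HKO 1 lay within the WT range. The ATP synthase subunit a, mt-Atp6, was at 12047, 28479 and 11810 CPM in HKO and 16120, 14005 and 15836 CPM in WT, and its neighbour mt-Atp8 was at 3309, 8993 and 3961 CPM in HKO and 5301, 4652 and 5333 CPM in WT. For both, HKO 1 and HKO 3 were below every WT library.

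The 13 log2 fold changes lay between -0.18 (mt-Nd6) and 0.40 (mt-Cytb), with standard errors of 0.16 to 0.39 and adjusted p from 0.414 to 0.947. Relative to the mean of the other 5 libraries, HKO 2 was 1.23-fold (mt-Nd5) to 2.35-fold (mt-Cytb) higher over the 12 genes of one strand and 1.05-fold for mt-Nd6. All 13 genes lay below the WT mean in HKO 1 and all 13 in HKO 3. HKO 2 was the highest library in 12 of the 13 genes, so leaving it out lowers their HKO means. The genes largely moved together across libraries and are not 13 separate observations. When HKO 2 was left out all 13 log2 fold changes were negative, from -0.56 (mt-Nd4l) to -0.09 (mt-Nd2) with a median of -0.26. Then 3 of the 13 genes were called lower, where the background was 12.2% of genes: mt-Co1 (-0.54, adjusted p = 0.0398), mt-Atp8 (-0.49, adjusted p = 0.0449) and mt-Nd4 (-0.48, adjusted p = 0.0458). All 3 lay close to the threshold. The sign of the mitochondrial difference thus turned with 1 library for 11 of the 13 genes, the exceptions being mt-Nd5 and mt-Nd6, which were negative in both fits.

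**Figure D3:**
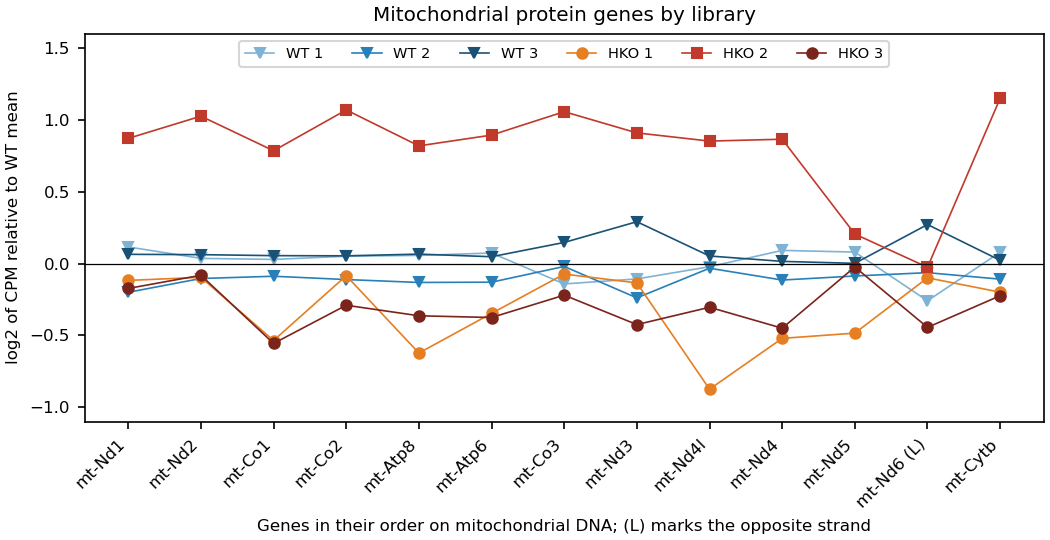
Level of each mitochondrial protein gene in each library as the log2 of its CPM relative to the WT mean, with genes in their order along mitochondrial DNA and lines joining the genes of 1 library. The line of HKO 2 stands above the others at 12 genes, coming closer to them at mt-Nd5, and lies among them at mt-Nd6, and the lines of HKO 1 and HKO 3 stay below 0.

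HKO 2 also differed from the other libraries in markers of other cells. The summed level of 10 endothelial markers was 196, 565 and 244 CPM in HKO 1, 2 and 3 against 122, 184 and 153 CPM in WT. The summed level of 10 stellate cell and fibroblast markers was 132, 547 and 148 CPM in HKO and 126, 86.3 and 95.4 CPM in WT. Among these lists, 2 of 10 endothelial (20%) and 3 of 9 tested stellate markers (33.3%) were called higher, against 12.1% of all tested genes. Kupffer cell markers were lower in HKO 2 than in HKO 1 and HKO 3 and above WT in all 3. The part of these cells in the mitochondrial and nuclear values was not tested, and in bulk RNA a change in the number of cells of a type and a change in RNA per cell cannot be told apart. On principal components of log-CPM, the second component, with 18.8% of the variance, set HKO 2 apart within its group.

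Genes that assemble the complexes, deliver electrons or control the pathway were read from lists outside the rule. No gene of the assembly lists was called higher: 0 of 8 tested genes were higher and 1 lower for complex I (median log2 fold change -0.09), 0 and 1 of 4 for complex II (-0.03), 0 and 2 of 21 for complex IV (0.06), and 0 and 0 of 6 for complex V (-0.09). These lists are not of assembly genes alone: the complex V list also holds the inhibitor gene Atpif1 and small subunit genes such as Usmg5. The complex IV list also holds Hccs, which acts on cytochromes c and c1. The background was 12.1% of all tested genes called higher and 11.2% lower, and a difference of these short lists from it was not tested. DESeq2 and limma-voom called no gene of the 4 lists higher either, while 1, 0, 4 and 1 had an unadjusted p below 0.05 in that direction. Hccs, the lyase that attaches heme to cytochromes c and c1, was at 12.4, 13.03 and 14.5 CPM in HKO and at 33.6, 29.2 and 30.7 CPM in WT. The groups were far apart, and Hccs fell by 1.23 on the log2 scale (SE 0.11, adjusted p = 0.000534), with its call kept in all 6 fits with a library left out. The other lower genes were Cox18 (-0.66), which inserts the mt-Co2 protein into the membrane, Tmem186 (-0.48) of the complex I assembly complex, and Sdhaf2 (-0.41), which helps attach flavin to Sdha.

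Cyc1, the cytochrome c1 gene of complex III, was the only called gene of the 7 in its list (14.3%, near the background of 12.1%). It was at 158, 140 and 141 CPM in HKO and at 112, 109 and 106 CPM in WT, without overlap, and the log2 difference was 0.42 (SE 0.09, adjusted p = 0.0142), much like its partner Uqcrc1. Cytochrome c itself, Cycs, was at 7.19 ± 1.10 CPM in HKO and 6.45 ± 1.04 in WT (SD, n = 3), with overlap (log2 fold change 0.16, adjusted p = 0.581). In the list of ubiquinone synthesis and cytochrome c, 2 of 14 were higher (14.3%, near the background of 12.1%) and 0 lower. Both are genes of ubiquinone-binding proteins rather than of synthesis enzymes: Coq10b rose from 17.9 ± 2.32 to 42.7 ± 1.504 CPM (by 1.25 on the log2 scale, SE 0.12, adjusted p = 0.000619) and Coq10a by 0.59 (adjusted p = 0.0452).

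Enzymes that pass electrons to ubiquinone or cytochrome c without complexes I and II had 3 of 9 genes higher and 0 lower. The share higher was 33.3%, against 12.1% of all tested genes, and the background for lower calls was 11.2%. Proline dehydrogenase, Prodh, was at 177, 128 and 148 CPM in HKO and at 51.6, 39.4 and 42.96 CPM in WT, a wide gap, and the log2 difference was 1.76 (SE 0.15, adjusted p = 0.000435). Sulfite oxidase, Suox, which reduces cytochrome c, rose from 59.6 ± 0.369 to 112 ± 13.5 CPM (0.90, SE 0.11, adjusted p = 0.00144). Etfdh, which takes electrons from fatty acid oxidation and was named after its value was seen, rose by 0.65 (SE 0.11, adjusted p = 0.00687). In the list of the tricarboxylic acid cycle, the source of NADH and succinate, 8 of 19 tested genes were higher (42.1%, against the same 12.1%) and 0 lower. That list also holds genes of pyruvate dehydrogenase and pyruvate carboxylase, which are not enzymes of the cycle itself. The median log2 fold change was 0.32. Ogdh, the gene of the 2-oxoglutarate dehydrogenase, was at 253, 233 and 295 CPM in HKO and at 125, 139 and 135 CPM in WT, without overlap, and rose by 0.97 on the log2 scale (SE 0.11, adjusted p = 0.00133).

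Among 15 tested regulators of respiratory genes 4 were higher (26.7%, against 12.1% of all tested genes) and 0 lower (against 11.2%). Esrra, the gene of ERR-alpha, an orphan nuclear receptor that acts with PGC-1 coactivators, was at 27.6, 22.9 and 26.5 CPM in HKO and at 12.7, 12.3 and 10.98 CPM in WT. The gap was wide and the log2 fold change 1.10 (SE 0.12, adjusted p = 0.00109), called in all 6 fits with a library left out. Ppargc1a, the coactivator PGC-1alpha, was at 14.7, 15.2 and 20.4 CPM in HKO and at 6.17, 10.8 and 8.60 CPM in WT, and rose by 0.97 (SE 0.23, adjusted p = 0.0195), a call lost without HKO 3 or without WT 3. Sirt3, a deacetylase of mitochondrial enzymes, rose from 26.8 ± 1.73 to 41.9 ± 3.46 CPM (0.64, SE 0.11, adjusted p = 0.00532), and the coactivator gene Pprc1, named after its value was seen, by 0.70 (adjusted p = 0.0432). The related coactivator Ppargc1b was low, at 1.74 ± 0.503 and 1.19 ± 0.144 CPM, and not called (0.55, adjusted p = 0.244). The DNA-binding factors Nrf1 (6.37 ± 0.761 CPM in HKO and 6.20 ± 1.40 in WT) and Gabpa (35.1 ± 3.96 and 40.1 ± 5.77 CPM) overlapped between the groups, with log2 fold changes of 0.03 and -0.19 and adjusted p of 0.922 and 0.357. Gabpa and Atp5j share exon bases on opposite strands, and Atp5j was not called (0.07).

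**Figure D4:**
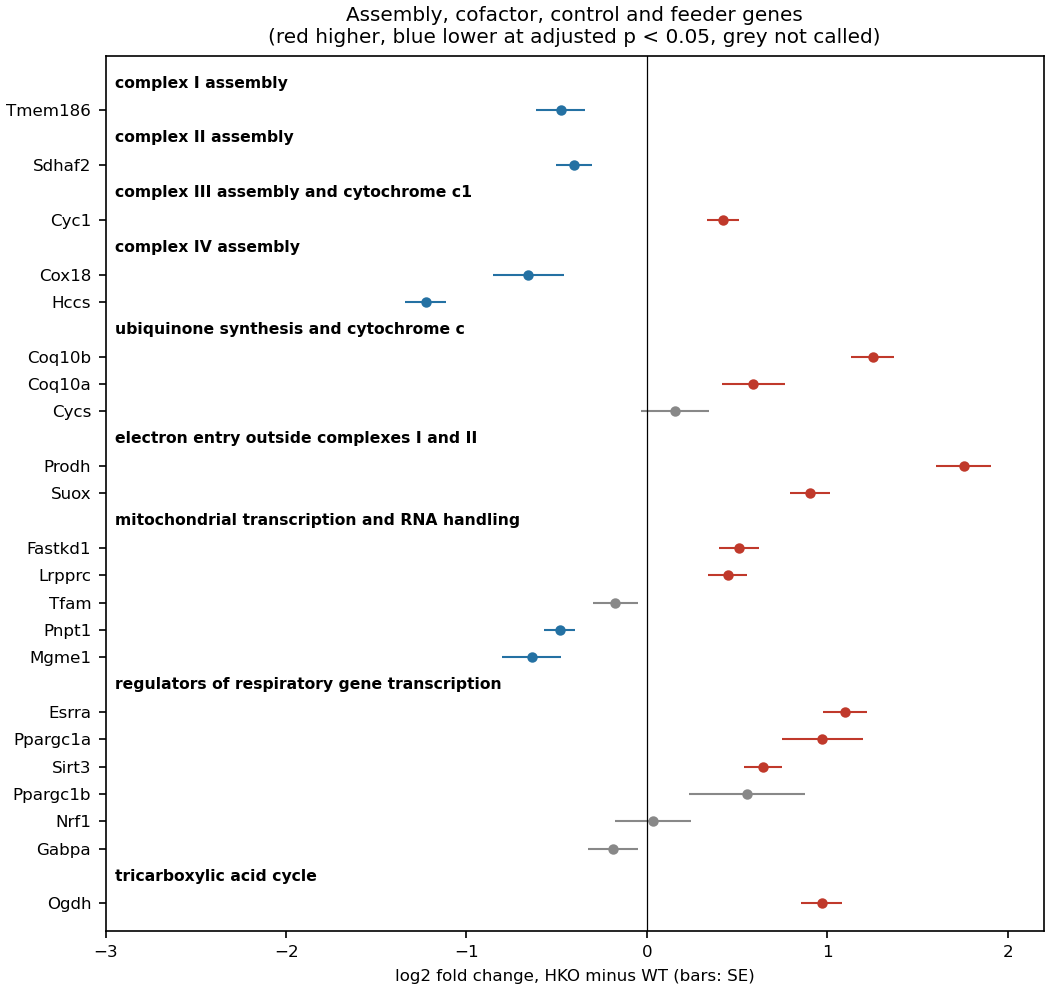
Log2 fold change, HKO minus WT, of named genes of assembly, electron delivery, control and the tricarboxylic acid cycle, with bars for SE; red genes were called higher, blue lower, grey neither. Prodh (1.76), Coq10b (1.25) and Esrra (1.10) lie farthest to the right and Hccs (-1.23) farthest to the left, while Nrf1, Gabpa, Tfam and Cycs lie within 0.19 of 0.

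The genes that copy, transcribe and process mitochondrial DNA and RNA had 2 of 33 higher (6.06%) and 3 lower (9.09%), both shares below the background of 12.1% and 11.2%, and the median log2 fold change was -0.14. Tfam, which packages mitochondrial DNA and starts its transcription, was at 37.7, 29.0 and 35.0 CPM in HKO 1, 2 and 3 against 39.9, 35.1 and 40.0 CPM in WT 1, 2 and 3. The groups overlapped and HKO 2, the library with the most mitochondrial counts, had the lowest Tfam (log2 fold change -0.18, SE 0.12, adjusted p = 0.334). Lrpprc, which stabilises mitochondrial mRNAs, was at 138, 119 and 143 CPM in HKO and at 88.6, 106 and 99.4 CPM in WT and rose by 0.45 (SE 0.11, adjusted p = 0.024). Fastkd1, of a family of mitochondrial RNA-binding proteins, rose by 0.51 (adjusted p = 0.0162). Pnpt1, a nuclease that degrades mitochondrial RNA, was at 27.8, 27.9 and 27.8 CPM in HKO and at 37.9, 38.6 and 40.3 CPM in WT. It fell by 0.48 (SE 0.09, adjusted p = 0.00789), with its call kept in all 6 fits. The mitochondrial DNA nuclease gene Mgme1 fell by 0.64 (adjusted p = 0.0267), and Ssbp1, which coats single-stranded mitochondrial DNA and was named after its value was seen, fell by 0.46 (adjusted p = 0.0356).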

How the data were processed

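The members and gene lists were chosen with earlier results of these data known. The authors deposited a table of raw read counts and FPKM (counts per gene length and library total), per the file headers, for 34745 genes. The submitters' processing notes name HISAT2 2.0.4, StringTie 1.3.0, mm10 and GRCm38.p4, with no roles. The sources used here do not give how reads of several genes were shared out, so genes with near-identical copies (nuclear copies of mitochondrial DNA, processed pseudogenes of Atp5k and Atp5l, small subunits with many pseudogenes) are uncertain, and the labels' protocols describe no strand-marking step. Coordinates are the table's, counted from 1, on GRCm38, and exon overlaps come from GENCODE M21, where all 109 members were found and 80 have the same coordinates.

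The deposited counts were fitted in R 4.3.3 with edgeR 4.0.16: filterByExpr by group, TMM scaling and the quasi-likelihood F-test of HKO against WT without a block. P-values were adjusted by the Benjamini-Hochberg method over 12556 genes, and a gene was called below 0.05. Each SE is the absolute log2 fold change over the square root of F. CPM are TMM-scaled, given as mean ± SD of 3 libraries. Fits were tested on simulated data. Alternatives were DESeq2 size factors, column totals, TMM without the mitochondrial genes, the DESeq2 1.42.0 Wald test, limma-voom (limma 3.58.1), every gene with a count in any library, a replicate block, and leaving out each library.

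The text names all mitochondrial genes and complex II genes; in complexes I, III, IV and V the 3 called genes with the smallest adjusted p in each direction; tissue forms of one subunit; called members that are no subunits; and in each list the 2 called genes with the smallest adjusted p in each direction, with Ppargc1a, Ppargc1b, Nrf1, Gabpa, Esrra, Tfam and Cycs. Some items that this rule or the figures would name are not reported here. Of 234 list entries, 224 matched by symbol. Promoter letters come from RefSeq (GRCm38.p6).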

Additional observations from a re-analysis of the deposited data

How the results depend on the processing

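The number of nuclear members called higher, 16 with all libraries, was 9 with column totals, and it was 13 to 17 under the DESeq2 size factors, TMM without the mitochondrial genes, the DESeq2 and limma-voom tests and the wider gene filter. With 1 library left out it ranged from 3 to 20, and the number called lower from 1 to 2. Genes called over the whole table ranged from 722 to 1589 (higher) and from 682 to 1546 (lower). Leaving out a library also removes residual degrees of freedom. The mitochondrial genes called lower ranged from 0 to 3, with 3 only without HKO 2. With 1 library left out, log2 fold changes changed sign for 16 of the 87 nuclear and 12 of the 13 mitochondrial genes, none of them called with all libraries. Those described above by name were mt-Nd1 (-0.14 to 0.45), mt-Nd2 (-0.087 to 0.56), mt-Nd3 (-0.27 to 0.47), mt-Nd4 (-0.48 to 0.34), mt-Nd4l (-0.56 to 0.37), mt-Nd5 (-0.23 to 0.079), mt-Cytb (-0.21 to 0.62), mt-Co1 (-0.54 to 0.26), mt-Co2 (-0.18 to 0.60), mt-Co3 (-0.14 to 0.59), mt-Atp6 (-0.36 to 0.40), mt-Atp8 (-0.49 to 0.33), Cox6c (-0.13 to 0.073) and Atp5j (-0.048 to 0.12), and outside the members it changed for Nrf1 (-0.12 to 0.20). The sign also changed with limma-voom for mt-Nd4 (-0.024), mt-Nd4l (-0.10), mt-Co1 (-0.092) and mt-Atp8 (-0.046). The cause was not tested.

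With a replicate block on the number in the titles, 7 nuclear members were called higher and 2 lower, and the log2 fold changes of mt-Nd4 (-0.043), mt-Nd4l (-0.12), mt-Co1 (-0.11) and mt-Atp8 (-0.062) changed sign. No pairing by number was seen: deviations of same-numbered libraries from their group means correlated at -0.00192, 0.00248 and 0.0717 across genes. Libraries with unlike numbers correlated at -0.0764 to 0.0556. Such correlations cannot show whether the design paired the libraries. With 3 libraries a group, HKO 2 and HKO 1 each decide part of the mitochondrial and nuclear values, and the counting depth allowed no test of the tissue-restricted forms Cox4i2, Cox6a2 and Cox7a1.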

Other observations

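Some nuclear subunit genes were listed at very low FPKM beside their complex. By mean FPKM in WT, Ndufb4 stood at 0.855 in complex I, where the median was 14.6, Cox7c at 1.79 in complex IV, where it was 42.6, and Atp5l at 3.85 in complex V, where it was 22.3. These genes were chosen after their values were seen, none was called, and the share of their reads held by near-identical copies was not tested. The pseudogene Atp5l2-ps, which the name rule also took, was listed at 6.54 FPKM in WT, above Atp5l itself, with a log2 fold change of 0.25 (adjusted p = 0.554 by edgeR).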
